A study of Mus musculus with 6 samples.

Results

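The genes described here are 8 enzymes of steroid metabolism, namely Hsd3b2, Hsd3b3 and Hsd3b5 of the 3β-hydroxysteroid dehydrogenase cluster on chromosome 3, and Hsd11b1, Hsd17b2, Hsd17b6, Srd5a1 and Akr1c6. They are 8 of the 23284 genes counted in each liver, and all 8 passed the filter on low counts, which 12453 genes passed. They were listed by name with earlier results of this same comparison in view, so their differences between the groups are given below as a description and without p-values. RNA was sequenced from the livers of male mice in which FXR (the farnesoid X receptor, gene Nr1h4, a nuclear receptor activated by bile acids) is floxed. All mice were injected through the tail vein at 8 weeks of age with AAV serotype 8 carrying Cre recombinase under the TBG promoter, which is active in hepatocytes, so that mouse FXR was deleted in the hepatocytes of both groups. The same injection carried a second AAV8-TBG virus that expressed FXR, either as FXR-WT (3 livers) or as Y67F-FXR (3 livers). In Y67F-FXR the tyrosine at position 67 that is phosphorylated in response to FGF19 is replaced by phenylalanine. At 4 weeks after injection, at 12 weeks of age, all mice were fed chow with 0.5% cholic acid (CA) for 6 h, so that livers without any FXR, without Cre or without CA were not analysed here.

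Hepatocytes both make and break down active steroid hormones. In rodents the Hsd3b genes form a family of close copies, some of which oxidise 3β-hydroxysteroids to 3-ketosteroids, while the Hsd3b5 enzyme of mouse liver works in the opposite direction, as an NADPH-dependent reductase of 3-ketosteroids, and is known as a product of adult male liver. The 17β-hydroxysteroid dehydrogenases interconvert active and weak sex steroids at carbon 17, the 5α-reductase Srd5a1 reduces the A ring of testosterone and of corticosterone, and Hsd11b1 regenerates active corticosterone from its inert 11-keto form.

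In mice expressing Y67F-FXR, the level of Hsd3b5 mRNA was 22.2-fold below that in mice expressing FXR-WT. The levels of Hsd3b3 and Hsd17b2 were 53.1% and 40.3% lower, with no overlap between the 3 livers of one group and the 3 of the other. Hsd3b2 and Akr1c6 also had non-overlapping, lower values in the Y67F-FXR livers, by 44.3% and 24.0%, while Srd5a1, Hsd11b1 and Hsd17b6 overlapped. By the rule used for all genes (a Benjamini-Hochberg adjusted p under 0.05 in the quasi-likelihood test of edgeR, and more than 1.5-fold), 3 of the 8 enzymes, Hsd3b3, Hsd3b5 and Hsd17b2, were called lower, where 0.426% of all tested genes were, and 0 of 8 were called higher, where 0.546% were. The values of the groups did not overlap for 5 of the 8, all lower in Y67F-FXR, beside 10.5% of all tested genes without overlap in that direction, 10.2% in the other and 20.6% in either. As the genes were chosen with this contrast known, nothing is read from those counts.

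The libraries held between 19551113 and 22053320 counts, and replicates differed from each other by more than counting noise. Nr1h4 itself was counted at 152 to 209 CPM (reads scaled to the size of each library with TMM factors) in FXR-WT and at 169 to 186 CPM in Y67F-FXR livers, a gene-level count that does not separate a deleted exon from the rest of the mRNA. Nor does it show how many reads of the FXR expressed from the virus were counted there. Neither the mouse mRNA left nor the level of the introduced FXR can be read from it. Hepatocyte markers (6 of the 7 listed were found) summed to 95615 to 107712 CPM in FXR-WT and 93299 to 113601 CPM in Y67F-FXR livers. In such bulk samples fewer cells of a type and less RNA per cell cannot be told apart.

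The sequences upstream of Hsd3b5 and Hsd3b3 are shown first, because these genes had the largest differences of the 8 and because no other upstream sequence was as like that of Hsd3b5. They are the 250 bases before the annotated start, 5′ to 3′, from RefSeq (GRCm38.p6), which held an entry for 7 of the 8 genes and none for Hsd17b2. Both genes lie on the minus strand, with Hsd3b5 at chr3:98645535-98645784 and Hsd3b3 at chr3:98763129-98763378. Capitals mark every run of at least 8 bases that is identical and aligned in both.
Hsd3b5: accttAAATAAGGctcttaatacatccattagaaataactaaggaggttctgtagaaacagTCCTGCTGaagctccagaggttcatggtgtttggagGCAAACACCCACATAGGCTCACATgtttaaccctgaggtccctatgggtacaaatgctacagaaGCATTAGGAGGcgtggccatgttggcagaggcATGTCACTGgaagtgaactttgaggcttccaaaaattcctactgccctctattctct
Hsd3b3: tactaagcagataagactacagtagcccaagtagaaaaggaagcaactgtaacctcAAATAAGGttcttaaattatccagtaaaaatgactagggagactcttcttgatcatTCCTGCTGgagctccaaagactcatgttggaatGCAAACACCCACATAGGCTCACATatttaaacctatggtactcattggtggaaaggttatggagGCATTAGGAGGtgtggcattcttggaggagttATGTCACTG
The pair aligned over 199 positions with 151 identical bases (75.9%), and the 5 runs in capitals held 60 bases. The longest run, GCAAACACCCACATAGGCTCACAT, has 24 bases and was found in 3 of 32851 upstream sequences, that of Hsd3b5 and those of the 2 entries for Hsd3b3, whose starts lie 718 bases apart and whose upstream sequences match at 248 of 249 aligned bases.

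Hsd3b2 lies between Hsd3b5 and Hsd3b3 on the chromosome, and its upstream sequence (minus strand, chr3:98724544-98724793) is shown for contrast.
Hsd3b2: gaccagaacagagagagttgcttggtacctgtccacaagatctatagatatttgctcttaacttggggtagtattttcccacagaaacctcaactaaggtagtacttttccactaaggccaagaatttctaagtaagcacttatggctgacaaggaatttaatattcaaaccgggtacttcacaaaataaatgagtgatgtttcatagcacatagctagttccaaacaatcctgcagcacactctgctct
Its best alignment with the Hsd3b5 sequence covered 61 positions, of which 43 were identical. Ranked by alignment score against Hsd3b5, the 2 Hsd3b3 entries came first and second of 32850 upstream sequences with scores of 102 and 99, the next gene scored 29, and Hsd3b2 scored 2, tied with other genes. A search of both strands for TTCNNNGAA (a STAT5 site, in 7.02% of all upstream sequences), AGGTCA (a nuclear receptor half-site, 14.0%), TTGCNNAA (the core bound by C/EBP factors, 9.56%) and TATAAA (the box found near many starts, 12.4%) found 1 match among the 7 genes with an entry, TATAAA in Akr1c6 from 164 to 159 bases before its start. These matches describe the letters of a 250-base window only.

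Hsd3b5 (mm9 chromosome 3, 98422559 to 98449457, minus strand, 4 exons) encodes a 3-ketosteroid reductase of the cluster. It was counted at 85.4, 106 and 137 CPM in the FXR-WT livers and at 4.96, 2.84 and 6.97 CPM in the Y67F-FXR livers, which rest on 1746, 2191 and 3166 reads against 102, 52 and 146 reads. The lowest FXR-WT liver thus stood far above the highest Y67F-FXR liver, and the 3 livers within each group also spread widely, with a pooled SD of 0.51 on the log2 scale beside a median of 0.24 over all tested genes. The fitted log2 fold change (Y67F-FXR minus FXR-WT) was -4.47 with a standard error of 0.336, and it stayed between -4.80 and -4.21 when each liver was left out in turn.

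Hsd3b3 (mm9 chromosome 3, 98545399 to 98567051, minus strand, 5 exons) encodes a 3β-hydroxysteroid dehydrogenase/isomerase of mouse liver and kidney, the step that turns Δ5 into Δ4 steroids. Its level was 294, 294 and 323 CPM in FXR-WT livers and 139, 134 and 154 CPM in Y67F-FXR livers. In contrast to Hsd3b5 the values within each group lay close together, with a pooled SD of 0.091 (log2), larger than that of only 8.20% of tested genes. The fitted log2 fold change was -1.09 (SE 0.117). Its call was lost when FXR-WT replicate 3 or Y67F-FXR replicate 3 was left out, although the fold change without any 1 liver stayed between -1.15 and -1.05.

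Hsd3b2 (mm9 chromosome 3, 98515030 to 98528466, minus strand, 6 exons) encodes a further dehydrogenase/isomerase. It was counted at 19.9, 26.1 and 37.2 CPM in FXR-WT livers and at 18.6, 9.16 and 18.6 CPM in Y67F-FXR livers. The groups were separated only narrowly, by the gap between FXR-WT replicate 1 and the 2 higher Y67F-FXR livers. The fitted log2 fold change was -0.84 (SE 0.314), moved between -1.04 and -0.57 as single livers were left out, and did not reach the call.

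**Figure D1:**
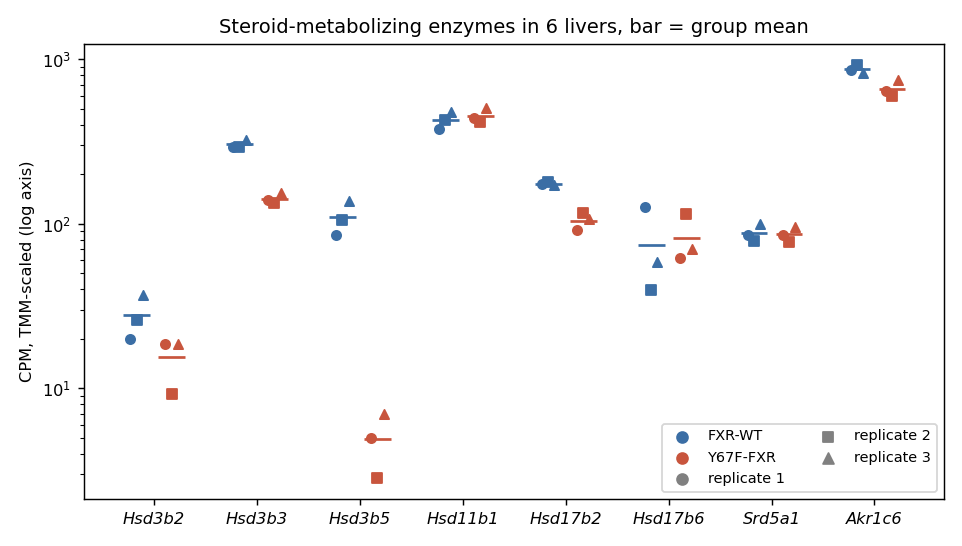
Level of each of the 8 enzymes in each liver, in CPM scaled by TMM factors on a log axis (vertical) by gene (horizontal). Each symbol is 1 liver, blue for FXR-WT and red for Y67F-FXR, and bars are group means of 3; Hsd3b5 is at 85.4 to 137 CPM in FXR-WT and at 2.84 to 6.97 CPM in Y67F-FXR livers, while the symbols of Hsd11b1, Hsd17b6 and Srd5a1 overlap between groups.

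Levels of the 3 Hsd3b genes were compared per length of transcript, as RPKM (the CPM of a gene divided by the length of its exons in kilobases). Their summed level was 249.96 ± 29.5 RPKM (SD, n = 3) in FXR-WT and 89.6 ± 9.38 RPKM in Y67F-FXR livers. Hsd3b3 made up most of it in both groups, with a share of 66.9% ± 4.48 in FXR-WT and 87.2% ± 3.66 in Y67F-FXR livers. The share of Hsd3b5 was 23.6%, 27.3% and 30.1% in the FXR-WT livers and 3.44%, 2.20% and 4.38% in the Y67F-FXR livers. The share of Hsd3b2 was 6.07% ± 1.20 and 9.43% ± 2.72. In RPKM, Hsd3b3 exceeded Hsd3b5 by 2.08 to 3.03 times in FXR-WT and by 19.4 to 41.6 times in Y67F-FXR livers, so both genes were lower in Y67F-FXR livers but to unequal degrees.

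**Figure D2:**
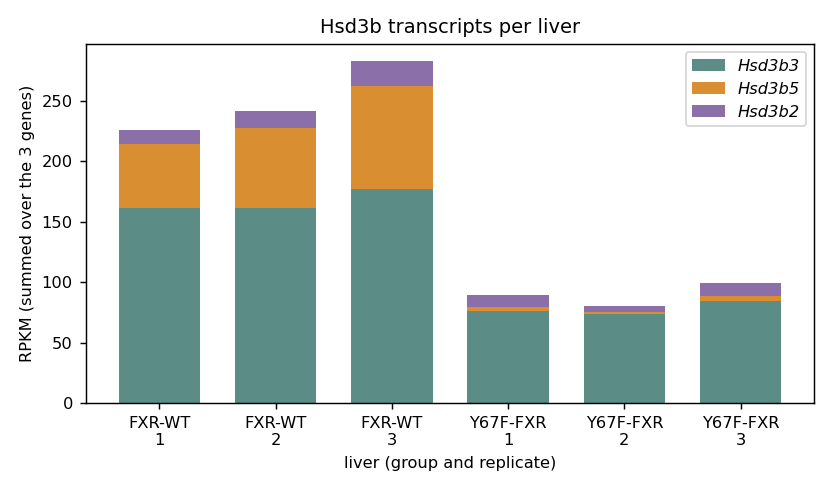
Summed RPKM of Hsd3b3, Hsd3b5 and Hsd3b2 (vertical axis, stacked) in each of the 6 livers (horizontal axis). The 3 FXR-WT bars reach 225 to 283 RPKM with an Hsd3b5 share of 23.6% to 30.1%, and the 3 Y67F-FXR bars reach 80.2 to 99.0 RPKM with an Hsd3b5 share of 2.20% to 4.38%.

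Because these genes are copies of one another, reads that fit several of them were left out of the counts. In GENCODE transcripts of mouse, 93.7% of aligned bases were identical between Hsd3b2 and Hsd3b3, with a longest identical run of 228 bases, and 77.8% between Hsd3b5 and Hsd3b3, with a longest run of 41 bases. The closest copy of Hsd3b5 was Hsd3b4, with 93.1% identity and a longest run of 166 bases. Of all 100-base windows, the length of 1 untrimmed read, 12.1% in Hsd3b2, 17.2% in Hsd3b3 and 7.79% in Hsd3b5 occurred exactly in a transcript of another gene. For 50-base windows, which stand for trimmed reads, the shares were 25.3%, 34.0% and 21.2%. The counts of all 3 genes are uncertain for this reason, and reads with a sequencing error could also be placed on the wrong copy. The shares do not measure that uncertainty, as the transcript examined for Hsd3b3 had 1533 bases against 1826 in the count files. Of the other Hsd3b genes, Hsd3b1, a form of steroid-producing glands, had 1 read in all 6 libraries together, and Hsd3b6 had 0, which by counting error alone allows up to 3. Hsd3b4 was also at 0, but each of the 1511 windows of the 1610-base transcript examined occurs in another transcript as well, and that transcript is shorter than the 3570 bases of the gene in the count files, so nothing is read from its 0. Hsd3b7, which encodes the 3β-hydroxysteroid dehydrogenase of bile acid synthesis, was at 443 ± 17.7 CPM in FXR-WT and 409.7 ± 29.7 CPM in Y67F-FXR livers (log2 fold change -0.11, SE 0.116, adjusted p = 0.754 in edgeR's quasi-likelihood test). Of its 100-base windows 94.5% occur in transcripts of 9430064I24Rik or Gm49388 in the GENCODE annotation, which is not the one used for counting.

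Among the enzymes that act at carbon 17, Hsd17b2 and Akr1c6 were lower in Y67F-FXR livers and Hsd17b6 had no consistent direction. Hsd17b2 (mm9 chromosome 8, 120225846 to 120282929, plus strand, 5 exons) oxidises estradiol and testosterone to estrone and androstenedione. Its level was 174, 179.6 and 172 CPM in FXR-WT livers and 91.1, 116 and 106 CPM in Y67F-FXR livers. The FXR-WT livers lay within a few percent of each other and all Y67F-FXR livers were below them. The fitted log2 fold change was -0.74 (SE 0.126), between -0.84 and -0.65 as single livers were left out. Its call held without Y67F-FXR replicate 2 but was lost without any other 1 of the 6 livers. None of its 100-base windows occurred in another transcript.

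Akr1c6 (mm9 chromosome 13, 4433589 to 4456776, plus strand, 9 exons) encodes the aldo-keto reductase with 17β-hydroxysteroid dehydrogenase activity of mouse liver. It was counted at 857, 929 and 825 CPM in FXR-WT livers and at 639, 598 and 747 CPM in Y67F-FXR livers. All Y67F-FXR values were below all FXR-WT values. The fitted log2 fold change of -0.40 (SE 0.132) lay below the 1.5-fold minimum and the gene was not called.

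Hsd17b6 (mm9 chromosome 10, 127427992 to 127444564, minus strand, 6 exons) oxidises 3α-androstanediol and retinol. Its level was 126, 39.3 and 58.3 CPM in FXR-WT livers and 61.7, 114 and 70.0 CPM in Y67F-FXR livers. The highest value was FXR-WT replicate 1, the next was Y67F-FXR replicate 2, and the lowest was FXR-WT replicate 2. The pooled SD of 0.69 (log2) was larger than that of 96.4% of tested genes, and the fitted log2 fold change was 0.14 (SE 0.417). It was 0.74 without FXR-WT replicate 1, and turned negative without FXR-WT replicate 2 (-0.17), FXR-WT replicate 3 (-0.01) or Y67F-FXR replicate 2 (-0.19).

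The same libraries differed in a technical measure, the median deviation of the 2491 shortest tested genes (20%, at most 1598 bases) from their mean over the 6 livers. This deviation was 0.20, -0.02 and -0.18 (log2) in the FXR-WT libraries and -0.20, 0.22 and -0.01 in the Y67F-FXR libraries, beside deviations of Hsd17b6 of 0.80, -0.88 and -0.31, and of -0.23, 0.66 and -0.04. The pair of libraries highest in short genes was also the pair highest in Hsd17b6, while FXR-WT replicate 2, lowest in Hsd17b6, was near the middle. Hsd17b2, Akr1c6 and Hsd11b1 (1280, 1359 and 1445 bases) are also among the short genes. In that pair, FXR-WT replicate 1 and Y67F-FXR replicate 2, they deviated by 0.37 and -0.22, 0.18 and -0.34, and -0.22 and -0.08. With an offset for gene length the pooled SD of Hsd17b6 went from 0.69 to 0.61 (log2), and the median of all tested genes from 0.24 to 0.21. It also fell for Hsd17b2 (0.13 to 0.089) and Srd5a1 (0.16 to 0.15). For Hsd11b1 (0.16 to 0.24), Akr1c6 (0.13 to 0.19), Hsd3b2 (0.52 to 0.57), Hsd3b3 (0.091 to 0.12) and Hsd3b5 (0.51 to 0.57) it rose. In Hsd17b6, 11.0% of 100-base windows occurred in transcripts of the neighbouring retinol dehydrogenase family (Rdh genes). The part of gene length in the spread of Hsd17b6 was not tested.

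**Figure D3:**
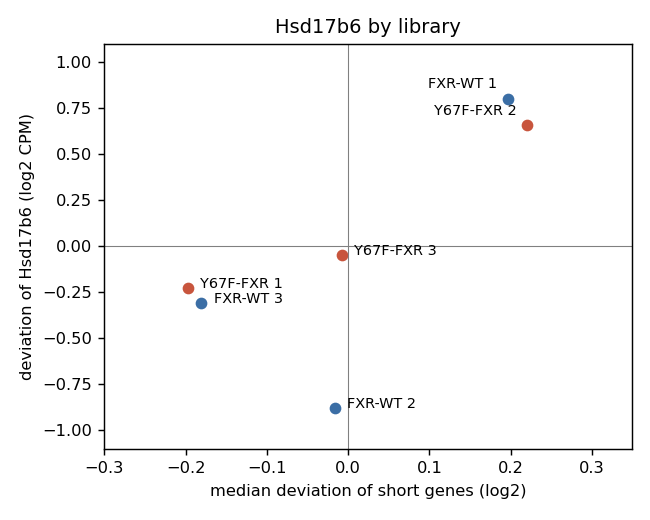
Deviation of Hsd17b6 from its mean over the 6 livers (log2 CPM, vertical) against the median deviation of the 2491 shortest tested genes in the same library (log2, horizontal), with FXR-WT in blue and Y67F-FXR in red. FXR-WT 1 (0.20, 0.80) and Y67F-FXR 2 (0.22, 0.66) lie together at the upper right, and FXR-WT 2 is lowest at -0.88.

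The remaining pair of enzymes had overlapping values in the groups. Srd5a1 (mm9 chromosome 13, 69712327 to 69750341, minus strand, 5 exons), the 5α-reductase, was counted at 86.0, 78.6 and 100.1 CPM in FXR-WT livers and at 85.7, 77.8 and 95.9 CPM in Y67F-FXR livers. Its fitted log2 fold change was -0.03 (SE 0.139), with values from -0.11 to 0.07 as single livers were left out. Of its 100-base windows, 14.9% also occurred in the predicted gene Gm17108. Hsd11b1 (mm9 chromosome 1, 195047835 to 195090239, minus strand, 7 exons), the glucocorticoid-regenerating reductase, was counted at 379, 431 and 478 CPM in FXR-WT livers and at 442, 416 and 509 CPM in Y67F-FXR livers. Its fitted log2 fold change was 0.09 (SE 0.140), and it was nearest to 0 without FXR-WT replicate 1. H6pd, which supplies NADPH to Hsd11b1 in the endoplasmic reticulum, was at 314 ± 73.7 and 295 ± 42.5 CPM (adjusted p = 0.908, edgeR), and Hsd11b2, which works against Hsd11b1, had 2 reads in all 6 libraries.

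Per length, the order of the 8 enzymes differed between the groups. In FXR-WT livers Akr1c6 was highest at 641 ± 39.0 RPKM (SD, n = 3) and ranked 118 of the 12453 tested genes. It was followed by Hsd11b1 (297 ± 34.4 RPKM), Hsd3b3 (166 ± 9.07 RPKM) and Hsd17b2 (137 ± 3.09 RPKM), and none of these neighbours overlapped. Hsd3b5 (68.1 ± 16.1 RPKM) came next and overlapped with Hsd17b6 (51.1 ± 31.2 RPKM), which in turn overlapped with Srd5a1 (33.1 ± 4.09 RPKM), and Hsd3b2 was last (15.4 ± 4.86 RPKM). In Y67F-FXR livers Akr1c6 (487 ± 56.9 RPKM) and Hsd11b1 (315 ± 33.4 RPKM) kept the first places, Hsd17b2 (81.7 ± 9.91 RPKM), Hsd3b3 (78.0 ± 5.67 RPKM) and Hsd17b6 (56.1 ± 19.3 RPKM) overlapped as neighbours, and Srd5a1 (32.4 ± 3.39 RPKM) and Hsd3b2 (8.58 ± 3.02 RPKM) followed. Hsd3b5 was last there, at 3.06 ± 1.29 RPKM. The 8 genes together took 2022 to 2131 CPM in FXR-WT and 1468 to 1709 CPM in Y67F-FXR livers.

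Over the 6 livers, the gene whose log2 CPM followed that of Hsd3b5 most closely, of 11513 compared, was Hsd3b3, with a Pearson correlation of 0.996. The next were Lrrc3 (0.994), Zc3h15 (0.994), 1810048J11Rik (0.993) and Tubb4b, which encodes a β-tubulin (0.992). Among the other enzymes, Hsd17b2 (0.925), Akr1c6 (0.922) and Hsd3b2 (0.82) had high coefficients, and Srd5a1 (0.25), Hsd11b1 (-0.16) and Hsd17b6 (-0.33) did not. With 6 points that fall into 2 groups, such a coefficient mostly restates the difference between the groups, and it is given as a description.

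Other genes of steroid metabolism, chosen by function, are placed beside the 8 enzymes. These other genes were also listed with earlier results of these data known, so they are not an independent comparison set. Their counts, p-values and median are given as a description. Of 65 listed genes 62 were found and 37 were tested, and 11 had 0 reads in all libraries. None of the 37 was called lower or higher in edgeR's quasi-likelihood test, where 0.972% of all tested genes were called in either direction. At an unadjusted p under 0.05 there were 8 of 37, with 5 lower and 3 higher, beside 13.4% of all tested genes. DESeq2, which called 215 of all genes lower and 214 higher, called 1 of the 37 lower, Ugt2b38 (adjusted p = 9.31e-04). Hsd17b11 and Cyp7b1, both higher in Y67F-FXR livers, had adjusted p = 0.0199 and 0.0147 in DESeq2 but stayed under the 1.5-fold minimum. The median log2 fold change of the 37 was -0.10, that of the 8 enzymes -0.57 and that of all tested genes 0.01.

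Among the other 17β-hydroxysteroid dehydrogenase genes, Hsd17b11 was at 273 ± 38.7 CPM in FXR-WT and 402 ± 30.03 CPM in Y67F-FXR livers (log2 fold change 0.56, SE 0.142, adjusted p = 0.137, edgeR). Hsd17b4, which acts in peroxisomal β-oxidation, was at 508 ± 73.6 and 639 ± 49.96 CPM (0.33, SE 0.144, adjusted p = 0.373). The most abundant per length were Hsd17b10 and Hsd17b13 (415 and 392 RPKM in FXR-WT livers), with log2 fold changes of 0.30 (SE 0.180, adjusted p = 0.553) and 0.18 (SE 0.195, adjusted p = 0.780, edgeR). In this list 5 of 6 tested genes had fitted values above 0, as did 6474 of the 12453 tested genes, and 2 of them, Hsd17b11 and Hsd17b4, had groups that did not overlap, beside 10.2% of all tested genes in that direction. None of the 6 passed edgeR's test.

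Other aldo-keto reductases of the Akr1c family were set beside Akr1c6 and its log2 fold change of -0.40. Akr1c12, Akr1c13 and Akr1c19 had log2 fold changes of 0.04, -0.03 and -0.15, and Akr1c20 of -0.50 (SE 0.210, adjusted p = 0.353, edgeR). Akr1c14 was at -0.41 (adjusted p = 0.657, edgeR) and Srd5a2, the second 5α-reductase, at -0.74 (adjusted p = 0.584), the latter from a level of 1.37 ± 0.596 CPM. Reads of Akr1c12 and Akr1c13 can fit both, as 11.5% of their windows are shared. Of 8 tested reductases, 7 were fitted below 0, as were 5979 of the 12453 tested genes, and none passed edgeR's test.

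The retinol dehydrogenases Rdh7, Rdh16 and Rdh9, which stand beside Hsd17b6 on chromosome 10 and resemble it, had log2 fold changes of 0.11, 0.52 and 0.26 (adjusted p = 0.775, 0.488 and 0.651, edgeR). Among the cytochromes P450, Cyp7b1, the oxysterol and steroid 7α-hydroxylase, was at 311 ± 41.6 CPM in FXR-WT and 446 ± 6.72 CPM in Y67F-FXR livers (log2 fold change 0.52, SE 0.133, adjusted p = 0.136), with no overlap. Cyp17a1 was at -0.43 (adjusted p = 0.569, edgeR), and Cyp21a1, the adrenal 21-hydroxylase, at -1.87 (SE 0.664, adjusted p = 0.266). The latter rests on 93, 20 and 42 reads against 7, 8 and 25 reads, with overlap.

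The glucuronosyltransferases, which conjugate steroids for excretion, held the smallest adjusted p of all 37 genes. Ugt2b38 was counted at 3.13, 4.36 and 5.57 CPM in FXR-WT and at 1.56, 0.491 and 1.53 CPM in Y67F-FXR livers (log2 fold change -1.85, SE 0.408, adjusted p = 0.0968, edgeR). Ugt2b37 was at -1.40 (SE 0.550, adjusted p = 0.323) and Ugt2b35 at -0.43 (SE 0.187, adjusted p = 0.378, edgeR). The abundant Ugt2b5, Ugt2b36 and Ugt2b34 had log2 fold changes of 0.12, 0.01 and -0.46. None of the 9 tested conjugating enzymes passed edgeR's test, while DESeq2, with 215 of all genes lower, called Ugt2b38 lower (adjusted p = 9.31e-04). Serpina6, the corticosteroid-binding globulin of plasma, was at 329.6 ± 39.7 and 244 ± 38.4 CPM without overlap (-0.44, SE 0.155, adjusted p = 0.266, edgeR), while the glucocorticoid receptor gene Nr3c1 was at -0.27 (adjusted p = 0.485) and the estrogen receptor gene Esr1 at -0.77 (adjusted p = 0.484, edgeR).

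**Figure D4:**
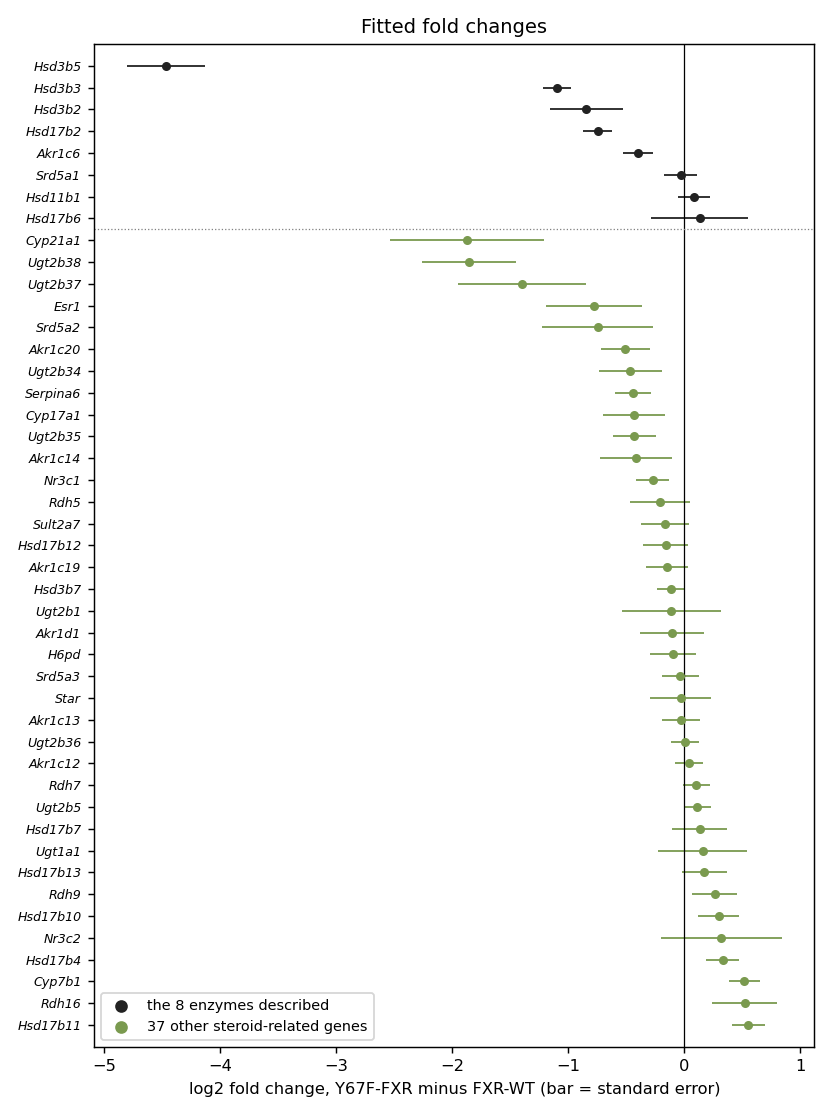
Fitted log2 fold change, Y67F-FXR minus FXR-WT (horizontal axis), of the 8 enzymes (black, above the dotted line) and of 37 other tested genes of steroid metabolism (green), 1 gene per line, with bars for the standard error. Hsd3b5 is farthest to the left at -4.47, and the green points run from -1.87 for Cyp21a1 to 0.56 for Hsd17b11.

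As Hsd3b5 is a male-biased gene of mouse liver, lists of sex-biased genes and of growth hormone signalling, the system that sets these differences, were counted without it. These lists too were chosen with earlier results of these data known, so their counts are given as a description. Of 12 male-biased genes tested, edgeR called 1 lower and 1 higher, beside 0.426% and 0.546% of all tested genes, and 5 were fitted below and 7 above 0. Of the 12, 6 had an unadjusted p under 0.05 (13.4% of all tested genes) and 6 had groups without overlap, 2 lower and 4 higher (20.6% of all tested genes in either direction). DESeq2, which called 215 of all genes lower and 214 higher, also called Ugt2b38 lower (adjusted p = 9.31e-04). It called Slco1a1, an organic anion transporter, higher (log2 fold change 0.87, adjusted p = 0.0305, against 0.170 in edgeR). Selenbp2, which encodes a selenium-binding protein, was at 223, 177 and 249 CPM in FXR-WT livers and at 26.4, 29.8 and 31.9 CPM in Y67F-FXR livers. It fell by 2.88 on the log2 scale (SE 0.166, adjusted p = 0.00141, edgeR), and its adjusted p was at most 0.0124 when 1 liver was left out. Elovl3, a fatty acid elongase, was at 21.4, 44.4 and 37.9 CPM against 105.5, 98.8 and 106 CPM. It rose by 1.58 (SE 0.245, adjusted p = 0.0336, edgeR), and its call held in 1 of the 6 fits without 1 liver, that without FXR-WT replicate 1, the highest adjusted p being 0.137.

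None of the 7 tested female-biased genes of 14 listed was called in edgeR, beside 0.972% of all tested genes, and 2 had an unadjusted p under 0.05, beside 13.4%. DESeq2, with 215 of all genes lower, called Cyp2c69 lower (log2 fold change -1.65, adjusted p = 0.0141). The 3 with the smallest adjusted p were Cyp2c69 with a log2 fold change of -1.65 (SE 0.423, adjusted p = 0.137, edgeR), Cux2, a female-biased repressor, with -1.92 (SE 0.609, adjusted p = 0.215), and Cyp2b9 with 1.67 (SE 0.947, adjusted p = 0.519). Of 9 genes of growth hormone signalling, edgeR called 1, higher, beside 0.546% of all tested genes in that direction, and 2 had groups without overlap, beside 20.6%. Bcl6, a repressor that shares binding sites with STAT5, was at 4.64, 9.41 and 8.86 CPM in FXR-WT and at 29.8, 28.5 and 19.9 CPM in Y67F-FXR livers, and rose by 1.77 (SE 0.280, adjusted p = 0.0353, edgeR). Its call also held in 1 of the 6 fits without 1 liver, that without FXR-WT replicate 1, and the highest adjusted p was 0.105. Igfals (-0.42, adjusted p = 0.330, edgeR) and Stat5a (0.37, adjusted p = 0.418) followed.

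Markers of cells that could bring steroid enzymes or dilute hepatocytes were summed in each library. Of 9 markers of the adrenal cortex, which lies near the liver, Cyp11b1, Mc2r and Nr5a1 were at 0 in all 6 libraries and Cyp11a1 had 1 read. Star was at 2.37 CPM in FXR-WT and 2.32 CPM in Y67F-FXR livers, and Cyp21a1 at 2.44 and 0.657 CPM, with overlap. Akr1b7 was at 0.254 and 0.0844 CPM, lower without overlap. The list summed to 3.93 to 6.84 CPM in FXR-WT and 2.45 to 3.48 CPM in Y67F-FXR livers, also without overlap. Beside it, Hsd3b5 was at 85.4 to 137 CPM in FXR-WT and 2.84 to 6.97 CPM in Y67F-FXR livers. Leukocyte and Kupffer cell markers summed to 106 to 163 and 85.9 to 209 CPM, and of 7 tested, 4 were fitted below 0 and 3 above. Ptprc, Cd68, Emr1, Clec4f and Cd5l overlapped between the groups (log2 fold changes of 0.03, 0.04, -0.17, -0.02 and 0.37). S100a8 and S100a9, genes of neutrophils, were at lower values without overlap, beside 10.5% of all tested genes (adjusted p = 0.0529 and 0.106, edgeR). DESeq2, with 215 of all genes lower, called both lower (adjusted p = 0.00326 for S100a8 and 0.00401 for S100a9), as did edgeR with length offsets (0.0344 and 0.0451). S100a8 also passed with library totals (0.0487) and with no filter beyond 1 read (0.0448), and with 1 liver left out the adjusted p was at most 0.181 for S100a8 and 0.329 for S100a9. All 6 stellate cell markers were fitted below 0 (as were 5979 of the 12453 tested genes), 3 of them without overlap (beside 10.5% of all tested genes), at a sum of 167 to 180.5 CPM in FXR-WT and 115 to 164 CPM in Y67F-FXR livers. None of the 6 was called in edgeR's main test, but Lrat, which esterifies retinol in stellate cells, was close to it (log2 fold change -1.15, adjusted p = 0.0540). DESeq2 called Lrat lower (adjusted p = 1.08e-04), as did edgeR with RLE factors (0.0498), with no filter beyond 1 read (0.0364) and with length offsets (0.0189), while its adjusted p was at most 0.194 with 1 liver left out. Cholangiocyte markers summed to 9.29 to 13.9 and 11.96 to 12.2 CPM, endothelial markers to 81.5 to 92.3 and 85.1 to 89.3 CPM, and the 4 erythrocyte markers were listed at 0. These globin genes are near-identical copies with overlapping entries in the count annotation, and reads that fit several genes were left out, so nothing is read from their 0. The part of other cells in the differences of the 8 enzymes was not tested.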

How the data were processed

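Liver mRNA of 6 mice, 1 library each, was sequenced as paired-end reads of 100 bases. Per the labels and file headers, the authors trimmed reads with Trimmomatic 0.36, aligned them with STAR (2.5.3a in the processing notes) and deposited raw counts per gene, made with featureCounts 1.4.6-p4 on UCSC mm9 genes without strand, with mates counted singly and reads that map or assign to several places left out. No depth correction had been applied. A table of the authors' own comparison (fold changes and p-values) was not used. Groups follow the labels. Counts were fitted with edgeR 4.0.16 (R 4.3.3; filterByExpr, TMM, quasi-likelihood test on all 6 livers), and genes were called at an adjusted p under 0.05 (Benjamini-Hochberg) and a fold change over 1.5. DESeq2 1.42.0 and other scalings, filters and fits are described under the dependence on the processing. Log2 CPM used a prior count of 2. The fit was tested on simulated data. The titles number the libraries within each group, and the paper gives 1 library for each biological sample. It describes more mice per group than were sequenced and does not say how those sequenced were picked. An exact test of 3 against 3 cannot go below p = 0.10.

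The 8 enzymes and all gene lists were chosen with earlier results of these data known. Named beside the 8 enzymes were every called gene of the lists, of each steroid list the 3 genes of highest mean RPKM and the 3 of smallest adjusted p, of the sex-biased and growth hormone lists the 3 of smallest adjusted p, and the 5 genes of mean CPM at least 1 most like Hsd3b5. Cyp7b1 and Ugt2b38 count under more than 1 list. Promoters came from RefSeq (GRCm38.p6) and transcripts from GENCODE of the GRCm38 build, while gene positions are those of the count files (mm9). Pairwise alignments used Biopython 1.88.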

Additional observations from a re-analysis of the deposited data

How the results depend on the processing

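Hsd3b5 was called lower under each setting tried. Hsd3b3 and Hsd17b2 were called lower with RLE factors, library totals or upper quartile factors, in DESeq2, with either other filter on low counts and with gene length offsets. As the enzymes were chosen with this contrast known and each setting used the same livers, nothing is read from these calls. Over all genes, 53 were called lower and 68 higher. With library totals as the scaling, 68 were lower and 52 higher, and the median log2 fold change moved from 0.01 to -0.06. DESeq2 called 215 lower and 214 higher, and 1 of the 37 other steroid genes lower. With no filter beyond 1 read, 81 were called lower, and with length offsets 124 lower and 123 higher. With 1 liver left out, 7 to 33 genes were called lower and 2 to 35 higher, and of the 37 steroid genes 0 in either direction. On library totals the level of Hsd17b2 in FXR-WT livers was 140.2 RPKM against 137 RPKM.

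The labels number the livers 1 to 3 in each group, but same-numbered livers did not deviate together (correlations of -0.52, -0.08 and 0.12), nor did every liver correlate best with its own number. A fit with the replicate number as a block called 6 genes lower and 2 higher, and of the 8 enzymes Hsd3b5 alone. The cause was not tested for any of these changes. Depth limits Hsd3b1, Hsd3b6 and Hsd11b2, with 0 to 2 reads in all.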
